A study of Homo sapiens with 12 samples.

Results

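The relapse of HEL cells after doxorubicin and cytarabine was compared with untreated HEL cells. The Doxo+Cyta libraries carry the labels 19, 20 and 22 and the untreated (NT) libraries the labels 1 and 2, so the comparison rests on 5 of the 12 libraries of the series. HEL is an established human erythroleukemia line, and the cells used here carried DNA barcodes. The study reports founding mutations of JAK2 and P53, the latter with loss of function, in all its groups. Doxo+Cyta cells met 1.8 µM doxorubicin and 6 µM cytarabine for about 72 h, were washed and freed of dead cells, and regrew for about 30 days to the number first seeded. NT cells received DMSO in place of the drugs. Relapses after 1.8 µM doxorubicin alone (Doxo, n = 3) and after both drugs with 0.1 µM decitabine (Doxo+Cyta+DAC, n = 4) served to estimate the spread of each gene and as points of reference. Each relapse is a culture grown from the cells that outlived the drugs, not a single clone. The labels call the cultures biological replicates but do not say how far they were handled apart, so the p-values measure only the spread between these libraries.

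Doxorubicin is an anthracycline that slips between DNA bases and traps topoisomerase II on broken DNA. Cytarabine is a nucleoside analog that enters through nucleoside transporters, is phosphorylated and halts DNA synthesis. HEL cells belong to the erythroid and megakaryocytic branch of blood formation, which shares early regulators such as GATA2 with mast cells and basophils. RNA was taken after regrowth, so it reports the cells that came back and not the acute response to either drug.

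The libraries held 12763582 to 19106235 counted fragments, and 14164 genes passed the filter on low counts. Of 14 markers of the erythroid and megakaryocytic branch, 13 were detected, and GP1BB had no count in any library. The summed level of these markers was 10000 to 11100 CPM (fragment counts scaled to library size) in NT and 11900 to 12700 CPM in Doxo+Cyta. Markers of other cell types stayed far below: T and NK cell genes summed to 48.0 to 52.4 CPM in NT and 64.4 to 86.2 CPM in Doxo+Cyta, with CD3E, CD3G and CD8B at 0 there. B cell genes summed to 28.6 to 42.2 CPM, fibroblast genes to 44.1 to 52.0 CPM and epithelial genes to 12.7 to 16.3 CPM in Doxo+Cyta.

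Replicate 20 stood apart from replicates 19 and 22. Each library was set against the mean of the other Doxo+Cyta libraries over all tested genes, and the root-mean-square difference was 0.544 on the log2 CPM scale for replicate 20, 0.384 for replicate 19 and 0.378 for replicate 22. Of the 14164 genes, 852 (6.02%) differed over 2-fold in replicate 20, against 352 (2.49%) in replicate 19 and 331 (2.34%) in replicate 22. Taken pair by pair, replicates 19 and 22 were 0.356 apart, whereas replicate 20 was 0.575 and 0.57 from them. The NT libraries were 0.294 apart. Such a departure was not particular to Doxo+Cyta, since Doxo replicate 4 lay 0.498 from the mean of its own group, with 762 genes (5.38%) over 2-fold, where Doxo replicates 5 and 6 had 2.07% and 1.78%.

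The departure of replicate 20 followed gene length and base composition in part. In replicate 20 the median log2 difference from NT fell from 0.45 in the tenth of genes with the shortest exons (median 830.5 bases) to -0.44 in the tenth with the longest (median 8559 bases), and it ran from -0.41 in the genes poorest in GC to 0.40 in the richest. In replicates 19 and 22 the same medians lay between -0.03 and 0.07. Across 14140 genes, which are not independent and share the libraries, the Spearman correlation of the difference from NT with exon length was -0.47 in replicate 20, -0.03 in replicate 19 and -0.03 in replicate 22, and that with GC content was 0.45, 0.02 and -0.06. The NT libraries also differed from each other along length, with a correlation of -0.35 for NT 1 minus NT 2. With offsets for exon length and GC content, the root-mean-square difference from the other relapses was 0.448 in replicate 20. It was 0.358 in replicate 19 and 0.335 in replicate 22, so replicate 20 still stood apart. What set replicate 20 apart was not tested.

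**Figure D1:**
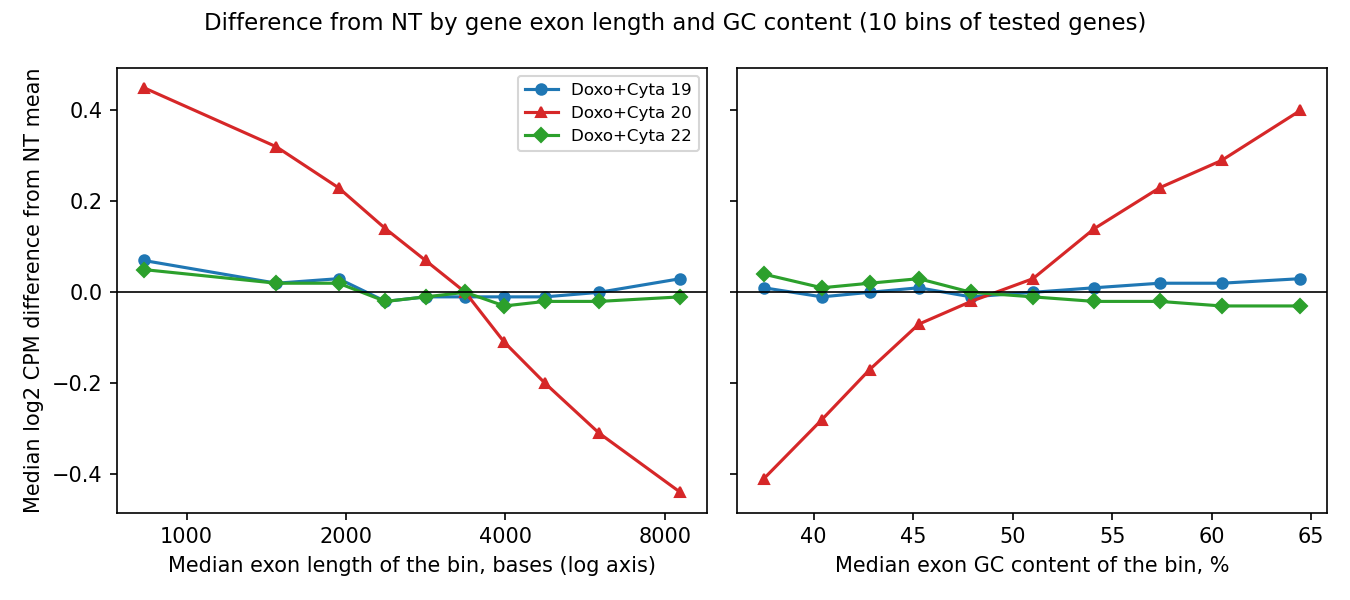
Median log2 CPM difference of each Doxo+Cyta library from the mean of the NT libraries (y axis), in 10 bins of tested genes ordered by exon length in bases (left, log axis) and by exon GC content in percent (right). Replicate 20 runs from 0.45 to -0.44 with length and from -0.41 to 0.40 with GC content, while replicates 19 and 22 stay between -0.03 and 0.07.

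The 6 genes furthest above the other relapses in replicate 20 included secreted signalling proteins. TNF, an inflammatory cytokine, was at 59.0 CPM in replicate 20 against 8.72 and 13.6 CPM in replicates 19 and 22 and 26.1 and 26 CPM in NT. GDF15, a stress-induced hormone, was at 17.0 CPM against 3.59 and 5.01 CPM. WNT11, a secreted ligand, was at 59.6 CPM against 12.7 and 15.0 CPM. Replicate 20 was thus the only Doxo+Cyta library above both NT libraries in these 3 genes. CDH18, a cadherin, the antisense RNA ZNF385D-AS2 and PRG2 completed the 6 genes on the high side. On the low side, LMO3 was at 0.6 CPM against 4.39 and 8.25 CPM, and ZBED6, a transcriptional regulator, at 2.13 CPM against 14.6 and 15.9 CPM. TMED8, FAM63B, UBXN7 and the non-coding LOC100288069 followed with log2 differences between -2.24 and -2.09. Of these 12 genes, PRG2 alone passed the test of Doxo+Cyta against NT.

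Doxo+Cyta cells differed from NT cells in 207 of 14164 genes at an adjusted p under 0.05, which is 1.46% of the genes tested. Of these, 129 (0.911%) were higher in Doxo+Cyta and 78 (0.551%) lower. The changes were small: 117 of the 207 were under 2-fold, the median log2 fold change was 1.01 among the higher genes and -0.80 among the lower, and 48 genes (0.339%) passed a natural log fold change beyond 1, 35 higher (0.247%) and 13 lower (0.0918%). No gene (0.0%) passed a fold change over 3 with an adjusted p under 0.01 in the edgeR test, whereas DESeq2 gave 40 such genes, and 2888 genes (20.4%) had an unadjusted p under 0.05. All 207 genes had no overlap between the Doxo+Cyta and NT libraries, as did 21.4% of all tested genes on the higher and 19.2% on the lower side.

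The number of calls depended on single libraries and on the test. Without replicate 20, 226 genes were called, 111 higher and 115 lower, and 138 of the 207 were among them. With offsets for exon length and GC content, 279 genes were called, 139 higher and 140 lower, with 148 of the 207 among them, and 109 genes were called in both of these fits. The called genes also followed length: exons had a median of 2241 bases in the higher genes and 4680 bases in the lower, against 3083 bases over all tested genes. Without replicate 20 these medians were 3184 and 3803 bases, and the correlation of the fold change with exon length moved from -0.25 to -0.02. The count fell to 26 without replicate 19 and to 49 without replicate 22. With either NT library left out, none passed (1895 genes without NT 1 and 1191 without NT 2 kept an unadjusted p under 0.05, and DESeq2 on all libraries called 835). It was 13 where Doxo and Doxo+Cyta+DAC were kept out of the fit, 711 without Doxo replicate 4, 84 without Doxo replicate 5 and 86 without Doxo replicate 6. All 207 genes kept their direction in every fit in which they could be tested. With a library left out this was fixed in advance, since none of the 207 had overlap between the Doxo+Cyta and NT libraries.

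**Figure D2:**
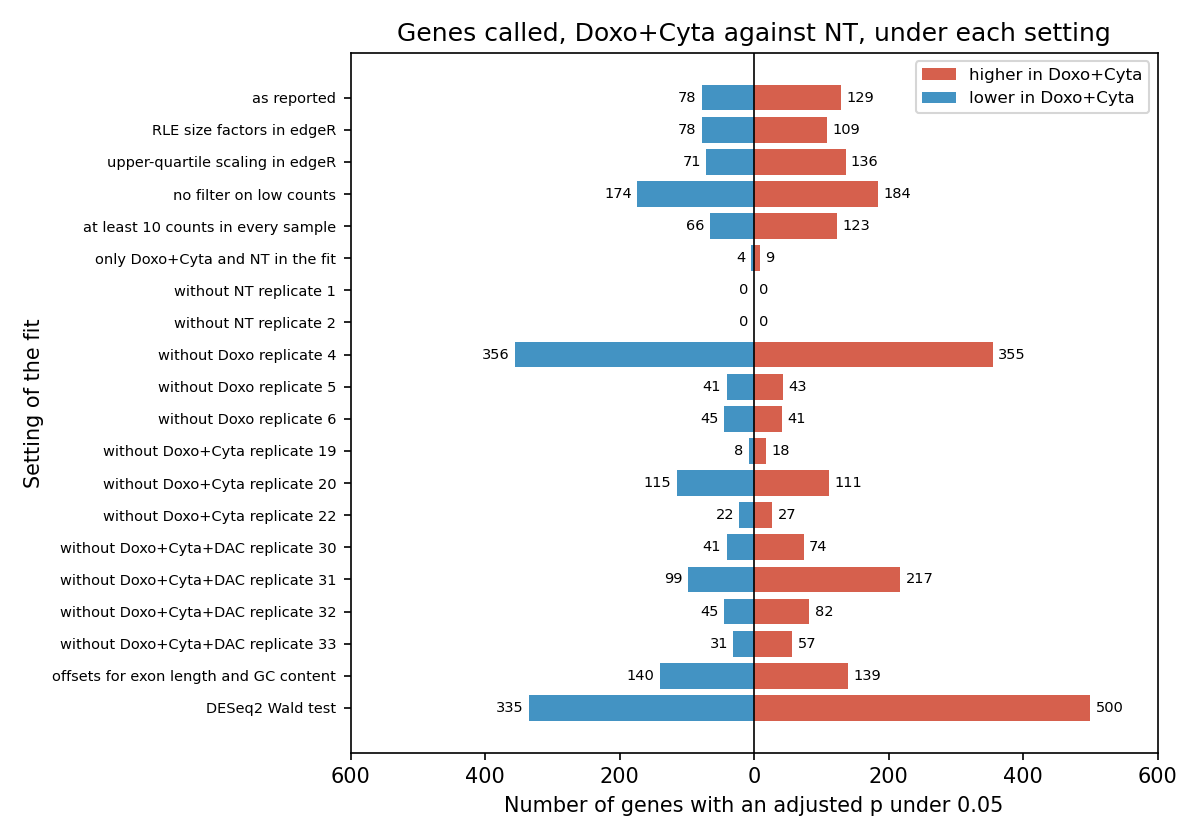
Number of genes called at an adjusted p under 0.05 (x axis) higher (red, to the right) and lower (blue, to the left) in Doxo+Cyta than in NT, under each setting of the fit (y axis). The reported fit gives 129 higher and 78 lower, the fit without replicate 20 gives 111 and 115, and no gene is called with an NT library left out.

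Among the 12 genes with the largest increase were genes with few counts in the NT libraries. WWTR1 encodes TAZ, a transcriptional partner of the Hippo pathway. It had 1 and 2 counts in the NT libraries and 24, 10 and 19 counts in Doxo+Cyta, a 13.5-fold difference with a 95% counting interval of 4.37 to 67.4. ABCG2, an efflux pump that carries several anticancer drugs, had 2 and 3 counts in NT and 30, 17 and 26 counts in Doxo+Cyta, an 11.1-fold difference with an interval of 4.56 to 35.3. The intervals cover counting error only. Both genes were higher in each of the 3 relapses than in either NT library, which their selection required. Their adjusted p were 0.0263 and 0.0317, yet both remained below 2 CPM.

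Among the others of the 12 were transcription factors. NR5A2, a nuclear receptor, was at 0.566 and 1.13 CPM in NT and at 3.83, 3.0 and 7.27 CPM in replicates 19, 20 and 22, a log2 fold change of 2.49 (SE 0.54, adjusted p = 0.0428). T, the mesoderm factor brachyury, was at 0.566 and 0.417 CPM in NT and at 1.24, 5.0 and 3.06 CPM in Doxo+Cyta (2.62, SE 0.57, adjusted p = 0.0428). UNC13A, a synaptic vesicle priming factor, was at 0.977 and 1.31 CPM in NT and at 7.3, 4.34 and 6.11 CPM in Doxo+Cyta (2.37, SE 0.36, adjusted p = 0.0188). T lost its call without replicate 20, with an adjusted p of 0.0675, while NR5A2 and UNC13A were called with 0.0342 and 0.014. The remaining members of this group were ARHGAP23, MLIP, PRG2, CXCL8, TMEM243, IPCEF1 and LINC00520, with log2 fold changes of 2.22 to 2.44. MLIP, a muscle and lamin-binding protein, was at 7.0 CPM in replicate 20 against 2.35 and 2.75 CPM, and its adjusted p was 0.0689 without that library.

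The strongest decreases included genes that were at or near 0 in the relapses. TENM1, a cell-surface teneurin on the X chromosome, had 18 and 20 counts in NT and no count in any Doxo+Cyta library, so it was at least 16.6-fold lower, taking 3 counts over the Doxo+Cyta group as the floor. HDAC9, a histone deacetylase, went from 19.6 and 23.8 CPM in NT to 0.124, 0.667 and 1.65 CPM in Doxo+Cyta, a log2 fold change of -4.71 (SE 0.65, adjusted p = 0.0117). GABRB2, a subunit of the GABA-A receptor, went from 10.6 and 11.5 CPM to 0.928, 0.2 and 1.22 CPM (-3.79, SE 0.61, adjusted p = 0.0197). HDAC9 and GABRB2 had the highest NT levels of the 12 genes with the largest decrease, and no relapse came near either NT library. SGCZ, a sarcoglycan, had 42 and 31 counts in NT and 0, 4 and 1 in Doxo+Cyta.

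The other strong decreases covered membrane, cytoskeletal and lineage genes. IGLL1, a surrogate light chain of early B cells, was at 3.45 and 2.5 CPM in NT and at 0.247, 0.334 and 0.244 CPM in Doxo+Cyta (-3.41, SE 0.58, adjusted p = 0.0236). ANK3, an ankyrin of the membrane skeleton, had a log2 fold change of -3.07, and KRT72, a keratin, -2.29. GJA5, a gap junction connexin, was at 10.5 and 10.2 CPM in NT and at 2.04, 4.34 and 3.12 CPM in Doxo+Cyta. TBX4, a T-box factor, the pseudogene DPY19L2P4 and the chemokine receptor CCR4 were also among the 12, with log2 fold changes of -1.87 to -1.48, and these 3 missed the threshold without replicate 20, with adjusted p between 0.0655 and 0.0764. TENM1, HDAC9, GABRB2, SGCZ, IGLL1, ANK3, KRT72 and GJA5 were called without that library. With DESeq2 on all libraries TENM1, HDAC9 and SGCZ were not called, whereas GABRB2, IGLL1, ANK3, KRT72 and GJA5 were.

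**Figure D3:**
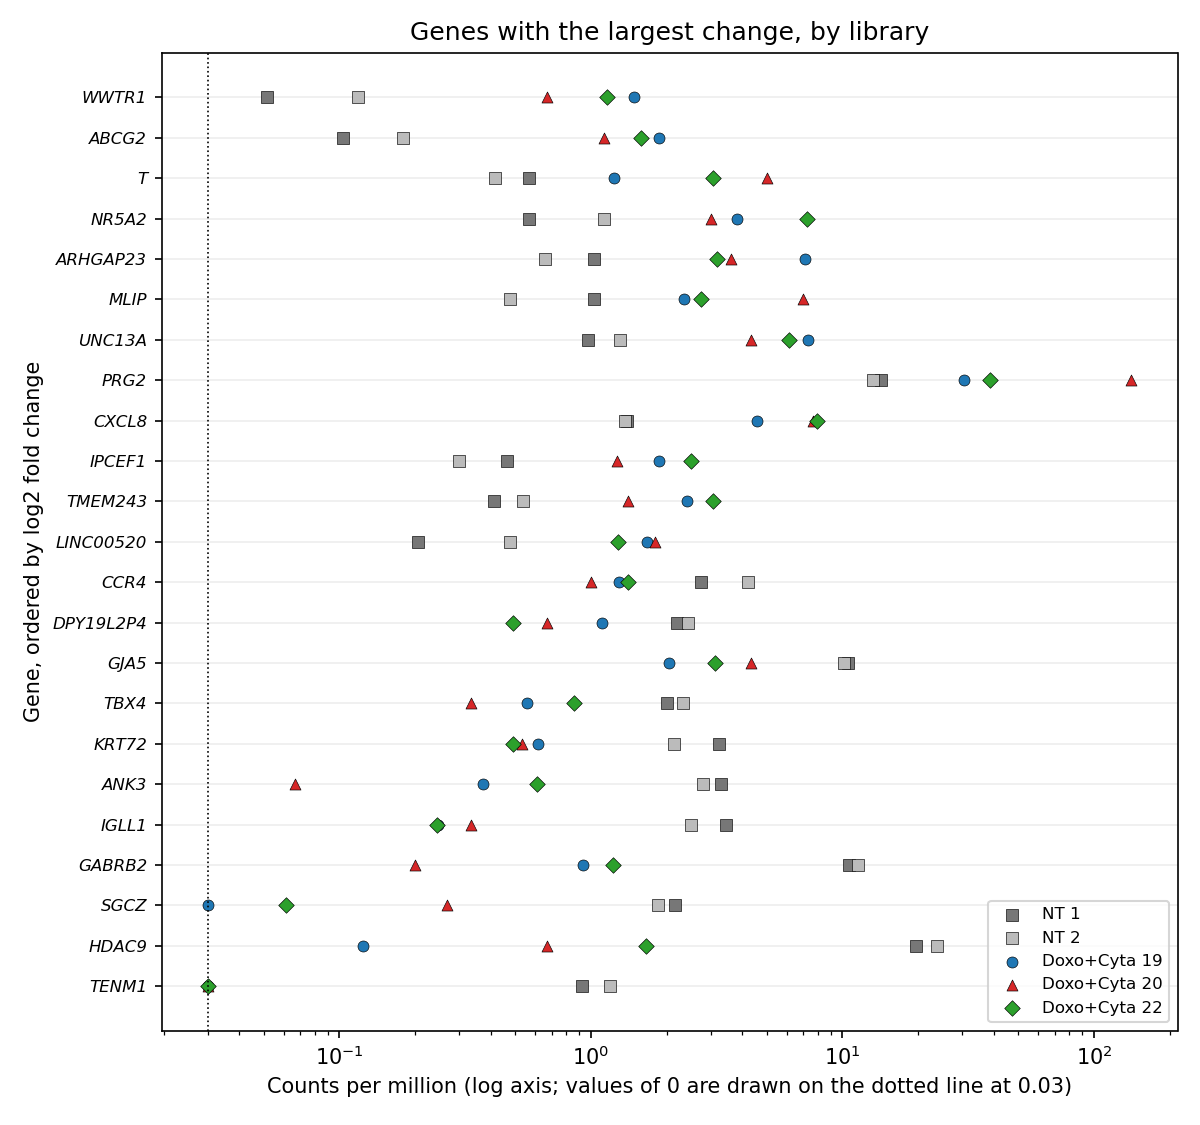
CPM (log axis) in each NT and Doxo+Cyta library for the genes with the largest increase and decrease that the text names, ordered by log2 fold change, with values of 0 drawn on the dotted line. The NT and Doxo+Cyta libraries do not overlap in any of these genes, which their selection required, and replicate 20 lies far above replicates 19 and 22 in PRG2, at 141 CPM.

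Granule proteases and lipid mediator enzymes of mast cells, basophils and eosinophils were among the called genes. This list of 31 genes was written after the values had been seen, so its counts describe these libraries and test nothing. Of its 25 tested genes 7 rose and 1 fell, where 129 of all 14164 genes (0.911%) rose, and its median log2 fold change was 0.55 against 0.01 over all genes. The list did not move as one: 10 of the 25 lay below 0, where 49.4% of all tested genes did. Without overlap between the libraries, 14 of the 25 were higher in Doxo+Cyta and 4 were lower. Over all tested genes these shares were 21.4% and 19.2%. The leukotriene enzyme ALOX5, at 1.18 and 0.774 CPM in NT and at 0.928, 0.2 and 0.122 CPM in Doxo+Cyta, and the eosinophil peroxidase EPX had log2 fold changes of -1.22 and -0.34 and did not pass the test. CPA3, a carboxypeptidase of mast cell granules, was at 56.3 and 53.1 CPM in NT and at 178, 164 and 196 CPM in replicates 19, 20 and 22 (1.71, SE 0.23, adjusted p = 0.0117). The Doxo+Cyta libraries were close together and well above NT. CPA3 was called in 17 of 19 alternative fits and missed the threshold where an NT library was left out.

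Tryptases, the main proteases of mast cell granules, lie next to each other on chromosome 16. TPSD1 was at 5.56 and 4.82 CPM in NT and at 26, 15.3 and 19.7 CPM in Doxo+Cyta (1.97, SE 0.25, adjusted p = 0.0113). TPSAB1 was at 8.59 and 8.52 CPM in NT and at 43.9, 38.0 and 29.3 CPM in Doxo+Cyta, and TPSB2 at 14.9 and 16 CPM and at 74.2, 54.1 and 54.4 CPM, with adjusted p of 0.0188 and 0.0243. These genes are near-identical copies, so the split of fragments between them is uncertain. PRG2, the major basic protein of eosinophil and basophil granules, was at 14.2 and 13.2 CPM in NT and at 30.6, 141 and 38.7 CPM in Doxo+Cyta (2.35, SE 0.52, adjusted p = 0.0428), so its fold change leaned on replicate 20 but its call did not (adjusted p = 0.0256 without it).

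Enzymes of lipid mediators moved as well. HPGDS, which makes prostaglandin D2, was at 18.2 and 17.7 CPM in NT and at 31.5, 34.6 and 37.5 CPM in Doxo+Cyta (0.94, SE 0.19, adjusted p = 0.0319). LTC4S, which makes leukotriene C4, was at 37.7 and 38.1 CPM in NT and at 67.4, 92.1 and 70.2 CPM in Doxo+Cyta (1.01, SE 0.17, adjusted p = 0.0239), and was not called with the length and GC offsets (adjusted p = 0.0711). HPGD, which breaks prostaglandins down, fell from 366 and 361 CPM to 230, 230 and 278 CPM (-0.56, SE 0.12, adjusted p = 0.0375). The receptor chain FCER1A was at 511 and 458 CPM in NT and at 421, 566 and 454 CPM in Doxo+Cyta, GATA2 at 1060 in both and at 942, 1090 and 863 CPM, and neither passed the test. CMA1, MRGPRX2 and PRG3 had no count in any of these 5 libraries. Against Doxo cells none of the 25 genes passed the test, although the list medians from NT were 0.37, 0.03 and -0.02 in the Doxo libraries and 0.39, 0.48 and 0.50 in Doxo+Cyta. Against Doxo+Cyta+DAC 19 of the 25 did, where 60.3% of all tested genes did so. TPSAB1 was at 0.619 to 2.53 CPM in Doxo+Cyta+DAC, below NT.

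**Figure D4:**
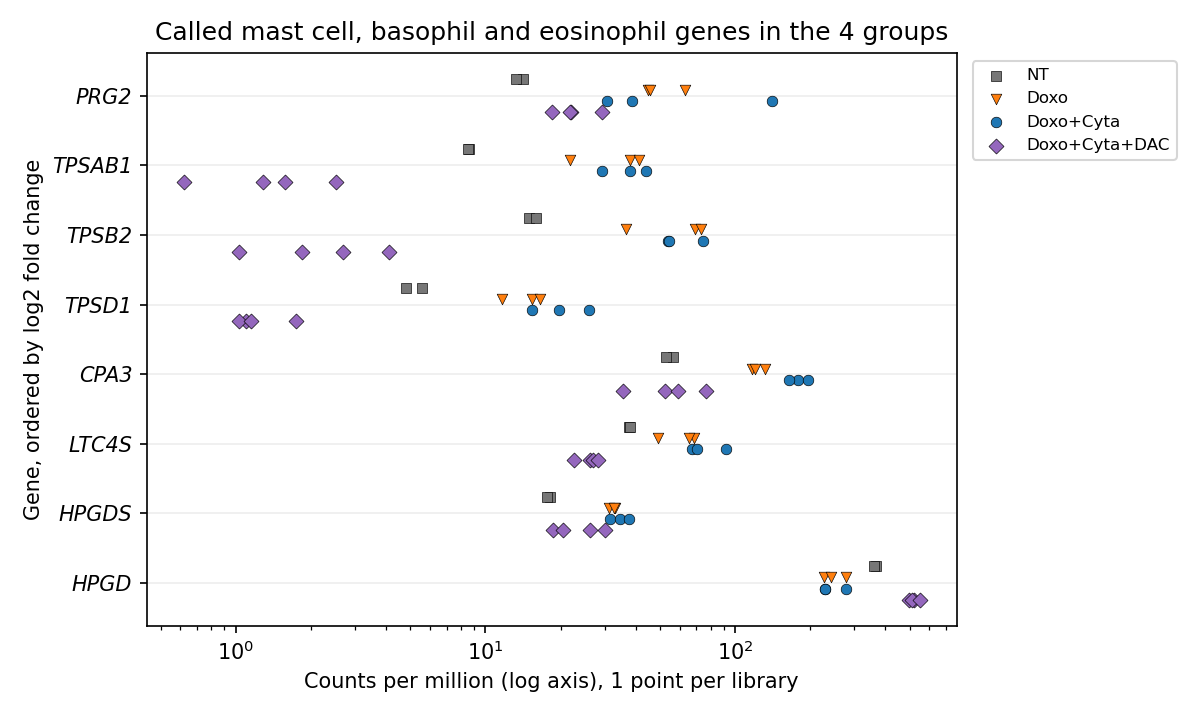
CPM (log axis) per library in the 4 groups for the 8 called genes of the mast cell, basophil and eosinophil list, ordered by log2 fold change. Doxo+Cyta is above NT in all but HPGD, it is above Doxo without overlap in CPA3 (164 to 196 against 117 to 132 CPM), and the tryptases are lowest in Doxo+Cyta+DAC, at 0.619 to 4.12 CPM.

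The GATA factors bind the letters AGATAA, and this motif stands in the promoters of CPA3 and HPGDS. The stretches below are shown because both genes were called in this list, and were chosen after the values were seen. They come from the RefSeq promoter table of build GRCh38.p14 and are printed 5′ to 3′ on the strand of the gene, with AGATAA or its reverse complement TTATCT in capitals.
CPA3 promoter (chr3:148865115-148865264, plus strand): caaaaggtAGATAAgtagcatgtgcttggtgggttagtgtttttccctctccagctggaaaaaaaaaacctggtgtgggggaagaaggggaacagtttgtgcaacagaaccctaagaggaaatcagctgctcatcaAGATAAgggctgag
HPGDS promoter (chr4:94342870-94343019, minus strand): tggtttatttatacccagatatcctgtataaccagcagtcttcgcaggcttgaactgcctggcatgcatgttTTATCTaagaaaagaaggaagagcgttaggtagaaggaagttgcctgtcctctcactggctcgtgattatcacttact
Within 250 bases before the start site, CPA3 held the motif 173 and 45 bases upstream and HPGDS held it 111 bases upstream. Of 10261 promoters of tested genes in the table, 523 (5.1%) held it on either strand. The table covered 154 of the 207 called genes (74.4%) and 10261 of the 14164 tested genes. Among the covered called genes, 9 of 92 that rose (9.78%) and 1 of 62 that fell (1.61%) held the motif. These shares leave out part of the called genes and were not tested. A match describes the letters and is no sign that a factor binds.

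Several DNA repair and replication genes fell in Doxo+Cyta. Over all tested genes 0.551% fell, 49.4% had a log2 fold change below 0 and 50.6% one above 0, and the counts of each list are to be read against these shares. Of 51 tested genes of DNA repair and the damage checkpoint 4 fell and none rose, 47 of the 51 had a fold change below 0, and the median log2 fold change was -0.28 against 0.01 over all genes. ATR, the kinase that answers stalled replication forks, was at 27.6 and 30.7 CPM in NT and at 15.5, 12.6 and 13.6 CPM in replicates 19, 20 and 22 (-1.06, SE 0.16, adjusted p = 0.0188). PRKDC, the catalytic subunit of DNA-dependent protein kinase, was at 562 and 588 CPM in NT and at 351, 249 and 330 CPM in Doxo+Cyta (-0.89, SE 0.18, adjusted p = 0.0349). BRCA1 was at 67.1 and 77.7 CPM in NT and at 39.7, 40.0 and 43.3 CPM in Doxo+Cyta (-0.82, SE 0.17, adjusted p = 0.0394). BRIP1, a helicase that works with BRCA1, was the fourth. The median of this list was similar in the 3 libraries, at -0.24, -0.35 and -0.27, and was -0.27 without replicate 20. With the length and GC offsets it was -0.23 and 2 genes of the list were called, with BRCA1 at an adjusted p of 0.085 and BRIP1 at 0.0667.

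Of 47 genes of DNA replication and S phase 2 fell, none rose and 44 were below 0, with a median of -0.30. MCM10, which loads the replicative polymerase, was at 46.6 and 49.4 CPM in NT and at 27.3, 26.8 and 23.9 CPM in Doxo+Cyta (-0.88, SE 0.16, adjusted p = 0.0263). POLD3, a subunit of polymerase delta, had a log2 fold change of -0.69 (adjusted p = 0.0489), or an adjusted p of 0.0544 with the length and GC offsets. The list was lower in replicates 19 and 22, with medians of -0.43 and -0.45, and nearly level in replicate 20, at -0.07. Without replicate 20 its median was -0.47 and 5 genes were called lower. E2F1, which switches on S phase genes, showed the same split at 44.6 and 45.8 CPM in replicates 19 and 22 against 78.7 CPM in replicate 20 and 78.3 and 79.2 CPM in NT, and did not pass the test. Of 35 mitotic genes 1 fell, the kinetochore protein CENPF (-0.52, adjusted p = 0.0461), with a list median of -0.11, and it was not called with the offsets (adjusted p = 0.085).

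The promoter of MCM10 is shown from the same table as an example of the genes that fell, again chosen after the values were seen, with CCAAT in capitals.
MCM10 promoter (chr10:13161374-13161523, plus strand): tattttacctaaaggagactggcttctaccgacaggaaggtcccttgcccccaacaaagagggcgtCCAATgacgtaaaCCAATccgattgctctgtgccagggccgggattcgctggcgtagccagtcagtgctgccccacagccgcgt
CCAAT, the letters bound by the factor NF-Y, stood 118 and 105 bases before its start site. Of the 10261 promoters 3606 (35.1%) held it on either strand. Among the covered called genes, 22 of 92 that rose (23.9%) and 28 of 62 that fell (45.2%) held it. Besides CCAAT and the other motifs printed here, E2F motifs (TTTCCCGC or TTTGGCGC) and the E-box (CACGTG) were searched. An E2F motif stood in 316 of the 10261 promoters (3.08%). It stood in 1 of 92 that rose (1.09%) and 2 of 62 that fell (3.23%). The E-box stood in 907 of the 10261 (8.84%), in 12 of 92 that rose and in 5 of 62 that fell. None of these shares was tested.

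MYC and a few genes of ribosome biogenesis and fatty acid synthesis fell as well. Of 43 genes of ribosome biogenesis 2 fell, none rose and 35 were below 0, with a median of -0.25. POLR1A, the largest subunit of RNA polymerase I, was at 26.1 and 33.7 CPM in NT and at 13.5, 14.1 and 15.5 CPM in Doxo+Cyta (-1.06, SE 0.21, adjusted p = 0.0321), and NOLC1, a nucleolar chaperone, had a log2 fold change of -0.60 (adjusted p = 0.0489). The list median was -0.35 and -0.40 in replicates 19 and 22 and -0.07 in replicate 20. MYC itself was at 275 and 283 CPM in NT and at 174, 217 and 172 CPM in Doxo+Cyta (-0.57, SE 0.13, adjusted p = 0.0489). No other gene of the MYC, MAX and MXD network was called, and the median of its 11 tested genes was 0.15, or -0.03 without replicate 20. Of 33 genes of cholesterol and fatty acid synthesis 2 fell and none rose, with a median of -0.06. These were ACLY and ACACA, which make acetyl and malonyl building blocks for fatty acids. They fell by 0.58 and 0.62 on the log2 scale, and both missed the threshold without replicate 20 (adjusted p = 0.0547 and 0.0591).

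A few inflammatory genes rose. Of 34 tested NF-kB and inflammatory genes 3 rose and none fell, with a median of 0.33 that was 0.18 without replicate 20. RELB, a subunit of the alternative NF-kB pathway, was at 51.0 and 48.2 CPM in NT and at 110, 127 and 114 CPM in Doxo+Cyta (1.24, SE 0.20, adjusted p = 0.0188). NFKB2, its usual partner, was at 141 and 131 CPM in NT and at 213, 266 and 215 CPM in Doxo+Cyta (0.76, SE 0.17, adjusted p = 0.0428). The neutrophil chemokine CXCL8 was at 1.39 and 1.37 CPM in NT and at 4.58, 7.67 and 7.94 CPM in Doxo+Cyta (2.28, SE 0.43, adjusted p = 0.0276). RELB was called in 17 of 19 alternative fits. NFKB2 missed the threshold without replicate 20 (adjusted p = 0.0648) and with the length and GC offsets (0.059).

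The CXCL8 promoter is a known meeting point of AP-1 and NF-kB. It is shown as an example of the genes that rose, again chosen after the values were seen. An AP-1 motif (TGAGTCA, here as its reverse complement TGACTCA) and an NF-kB motif (GGAATTTCC) are in capitals.
CXCL8 promoter (chr4:73740384-73740533, plus strand): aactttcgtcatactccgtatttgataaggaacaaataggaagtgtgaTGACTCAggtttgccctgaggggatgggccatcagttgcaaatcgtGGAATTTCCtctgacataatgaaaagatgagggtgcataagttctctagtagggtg
The AP-1 motif stood 137 and the NF-kB motif 91 bases before the start site. Of the 10261 promoters 264 (2.57%) held the AP-1 motif, and 50 (0.487%) held an NF-kB motif, searched as GGAATTTCC or GGGAATTCC on both strands. Among the 92 covered genes that rose, 6 (6.52%) held the AP-1 motif and 1 (1.09%) an NF-kB motif. Of the 62 that fell, 0 held either. These matches are no sign that a factor binds, and a link to the AP-1 and NF-kB subunits named here was not tested.

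Of 38 immediate early genes 2 rose and none fell, both subunits of AP-1. JUN was at 64.1 and 55.2 CPM in NT and at 129, 125 and 141 CPM in Doxo+Cyta (1.14, SE 0.15, adjusted p = 0.0113). FOSB was at 6.38 and 8.22 CPM in NT and at 17.5, 19.6 and 18.7 CPM in Doxo+Cyta (1.35, SE 0.30, adjusted p = 0.0461), and missed the threshold without replicate 20 (adjusted p = 0.0675). Without that library 1 gene of the list was called higher and 1 lower. The list as a whole was raised in replicate 20 only, with a median of 0.61 there against -0.04 and -0.02 in replicates 19 and 22, and without replicate 20 the list median turned from 0.27 to -0.05. EGR1, a growth factor-induced regulator, was at 258 and 235 CPM in NT, at 87.7 and 123 CPM in replicates 19 and 22 and at 243 CPM in replicate 20.

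A few genes of the interferon and antigen presentation lists rose, each by less than 2-fold. The interferon-induced GBP2, which is outside these lists, rose more and is given under other observations. Of 47 interferon-stimulated genes 2 rose and none fell, with a median of 0.27, or 0.19 without replicate 20. SP100, a component of nuclear bodies, was at 49.7 and 47.9 CPM in NT and at 78.2, 82.9 and 88.8 CPM in Doxo+Cyta (0.77, SE 0.14, adjusted p = 0.0239). IRF7, a master regulator of interferon genes, was at 11.4 and 10.1 CPM in NT and at 20.8, 21.5 and 19.2 CPM in Doxo+Cyta (0.94, SE 0.21, adjusted p = 0.0461), but was not called without replicate 20 (adjusted p = 0.0647) or with the length and GC offsets (0.0904). Of 20 genes of MHC class I and antigen processing 2 rose, with a median of 0.36: HLA-B (0.75, adjusted p = 0.0372) and the immunoproteasome subunit PSMB10 (0.76, adjusted p = 0.0352). Neither was called with the length and GC offsets. HLA-B is so variable and so like its neighbours that its fragments may be shared with them.

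Single genes of glycolysis and of the lysosome rose. Of 40 genes of the hypoxia response and glycolysis 2 rose and none fell, 34 were above 0, and the median was 0.27. GAPDH, a glycolytic enzyme, was at 9890 and 9170 CPM in NT and at 14500, 15400 and 15900 CPM in Doxo+Cyta (0.68, SE 0.12, adjusted p = 0.0239). ALDOA, another, had a log2 fold change of 0.53 (adjusted p = 0.0428). Neither was called with the length and GC offsets, with adjusted p of 0.0938 and 0.116, and ALDOA was at 0.0507 without replicate 20. The list median was 0.27 and 0.46 in replicates 19 and 22 and 0.12 in replicate 20.

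Of 40 lysosome genes 3 rose, none fell and the median was 0.22. CTSB, a cathepsin, was at 180 and 176 CPM in NT and at 294, 271 and 314 CPM in Doxo+Cyta (0.72, SE 0.14, adjusted p = 0.0276). GAA, the lysosomal glucosidase of glycogen, was at 4.94 and 4.41 CPM in NT and at 10.9, 9.27 and 9.78 CPM in Doxo+Cyta (1.10, SE 0.20, adjusted p = 0.0263). CTSF, another cathepsin, had a log2 fold change of 0.96 (adjusted p = 0.0489) and missed the threshold without replicate 20 and with the offsets (adjusted p = 0.072 and 0.0718). CD68, a lysosomal protein also used as a macrophage marker, was at 57.9 and 55.0 CPM in NT and at 112, 104 and 112 CPM in Doxo+Cyta (0.96, SE 0.20, adjusted p = 0.0372), or an adjusted p of 0.0542 with the offsets. Of the 10 markers of monocytes and granulocytes 5 could be tested and CD68 alone was called, their sum was 101 to 106 CPM in NT and 171 to 184 CPM in Doxo+Cyta, and ELANE had no count in these 5 libraries. Their part in these results was not tested.

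Respiratory genes differed between replicate 20 and the others, in a library that also departed along gene length and GC content. The median of 49 genes of oxidative phosphorylation was 0.42 in replicate 20 and -0.01 in both replicates 19 and 22. For comparison, the tenth of all genes with the shortest exons stood at 0.45 in replicate 20. The list median also differed by 0.16 between NT 1 and NT 2. The electron carrier CYCS was the single gene of this list that was called, and it fell from 111 and 110 CPM in NT to 71.4, 77.9 and 73.0 CPM (-0.57, SE 0.11, adjusted p = 0.0276), but it was not called with the length and GC offsets (adjusted p = 0.102). The median fold change of the list was 0.14, and it was 0 with the offsets and -0.06 without replicate 20. Amino acid supply genes under ATF4 split the same way, with medians of -0.25 and -0.24 in replicates 19 and 22 and 0.15 in replicate 20, and none of 34 was called.

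**Figure D5:**
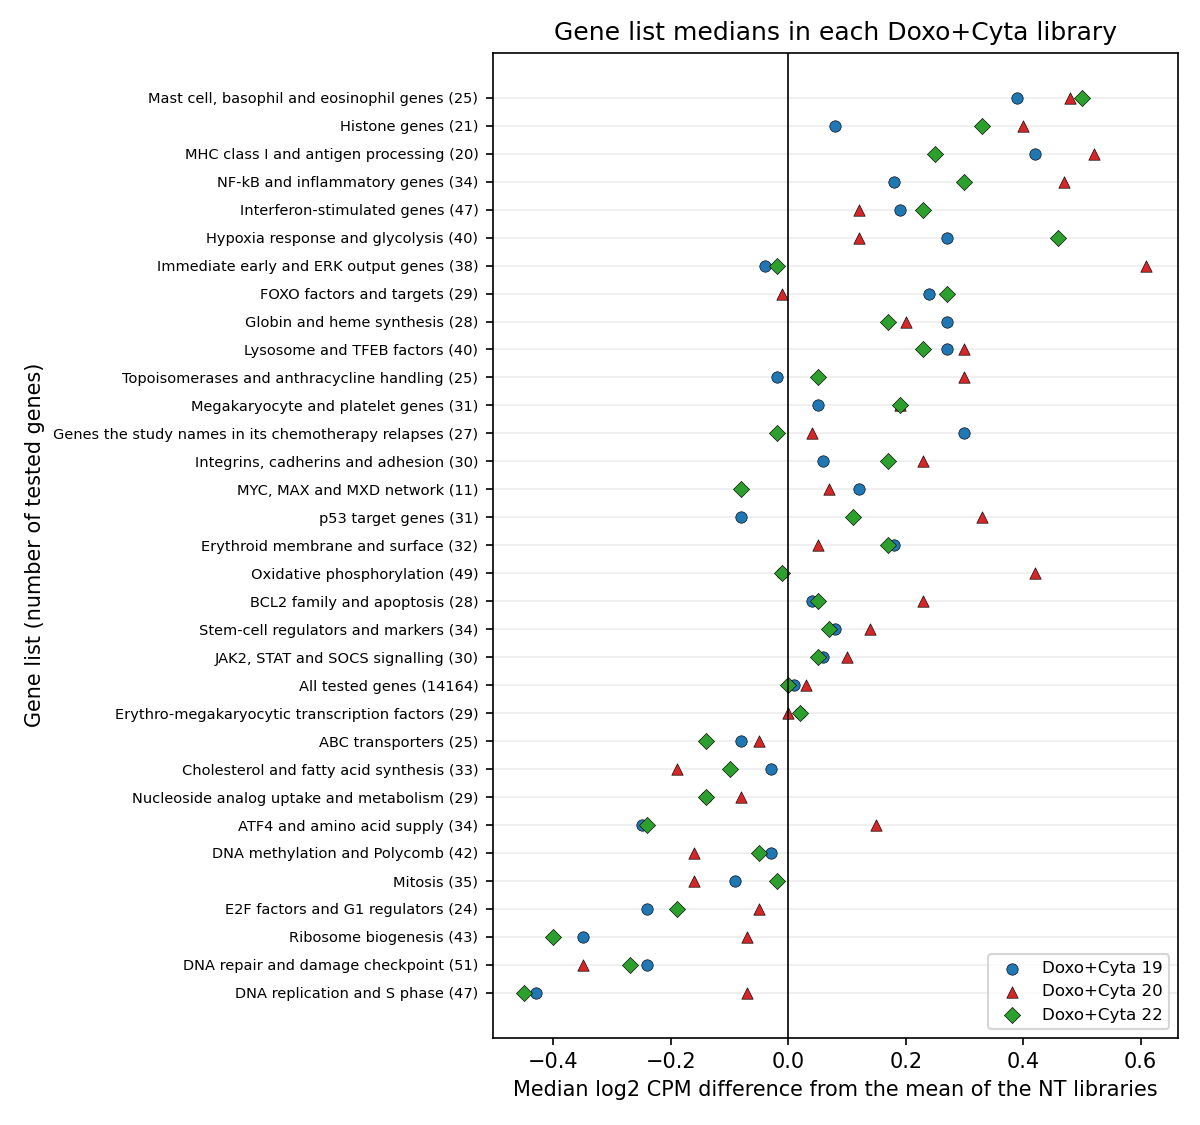
Median log2 CPM difference from the mean of the NT libraries (x axis) in each Doxo+Cyta library for the 31 pathway lists, the added mast cell list and all tested genes (y axis, number of tested genes in brackets), ordered by median log2 fold change. DNA repair genes are lower in all 3 libraries, at -0.24 to -0.35, while replicate 20 stands apart in immediate early genes at 0.61 and in oxidative phosphorylation at 0.42. The medians are without the offsets for length and GC content.

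Erythroid genes changed in a few members only. Of 28 genes of globins and heme synthesis 2 rose and none fell, with a median of 0.23. HBE1, embryonic epsilon globin, was at 176 and 151 CPM in NT and at 461, 597 and 664 CPM in Doxo+Cyta (1.81, SE 0.32, adjusted p = 0.0239), higher by more than 2-fold in every relapse. HMOX1, which breaks heme down, was at 11.4 and 11.2 CPM in NT and at 22.2, 20.1 and 16.9 CPM in Doxo+Cyta (0.80, SE 0.17, adjusted p = 0.0394), and missed the threshold without replicate 20 (adjusted p = 0.051). Of 32 erythroid membrane and surface genes 2 rose, DMTN (0.66, adjusted p = 0.0228), a protein of the red cell skeleton, and the glycophorin GYPC (0.52, adjusted p = 0.0486, or 0.0675 without replicate 20). Of 31 megakaryocyte and platelet genes MYL9, a myosin light chain, rose (1.30, adjusted p = 0.0461), and it missed the threshold without replicate 20 (adjusted p = 0.0752). None of 29 erythroid and megakaryocytic transcription factors was called, and their median was 0 in all 3 libraries to within 0.02. None of 30 genes of JAK2, STAT and SOCS signalling, of 34 stem-cell regulators or of 29 FOXO factors and targets was called, with medians of 0.04, 0.06 and 0.26.

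Genes that handle the drugs showed few changes. Besides ABCG2, the peroxisomal transporter ABCD3 was called among 25 ABC transporters, and it fell from 57.5 and 68.1 CPM to 38.0, 36.6 and 43.3 CPM (-0.68, SE 0.12, adjusted p = 0.0263). The median of the transporters was -0.05. TOP2B, a topoisomerase II that doxorubicin poisons, was at 360 and 372 CPM in NT and at 222, 249 and 249 CPM in Doxo+Cyta (-0.61, SE 0.11, adjusted p = 0.0239), and was not called with the length and GC offsets (adjusted p = 0.13). Its paralog TOP2A, named after its values were seen, was at 812 and 922 CPM in NT and at 789, 535 and 836 CPM in Doxo+Cyta. None of 29 genes of nucleoside uptake and metabolism was called, with a median of -0.06 and 21 of 29 below 0. Of 28 genes of the BCL2 family and apoptosis BMF, a promoter of cell death, rose from 5.76 and 6.25 CPM to 15.5, 14.4 and 16.4 CPM (1.36, SE 0.25, adjusted p = 0.0276). None of 31 p53 target genes was called. Replicate 20 again stood apart in this list, with a median of 0.33 against -0.08 and 0.11. The study reports a loss-of-function P53 mutation in these cells, so the list is no readout of intact p53.

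The study names 28 genes in describing its relapses. It names some as higher after chemotherapy alone and others, among them CCNE1, POLA1 and POLE, as higher in Doxo+Cyta+DAC. Medians over the list therefore pool genes named in both directions. CD34, CD38 and CD99 are named from surface protein measured by flow cytometry, which RNA counts do not measure. The other genes were chosen on these libraries, so their counts are not independent evidence. Of the 27 that could be tested, ABCG2 rose, none fell, and the median was 0.16. The study names ABCG2 as higher than NT in every treatment. Here ABCG2 was at 1.01 to 2.3 CPM in Doxo and at 1.98 to 4.81 CPM in Doxo+Cyta+DAC. TXNIP, an inhibitor of thioredoxin, was at 982 and 882 CPM in NT and at 1290, 1180 and 1550 CPM in Doxo+Cyta (0.52, adjusted p = 0.20). POLA1 and POLE, catalytic subunits of replicative polymerases, had log2 fold changes of -0.68 and -0.53 (adjusted p = 0.0737 and 0.18). The transporter ABCC3 was at 5.56 and 7.62 CPM in NT and at 10.3, 17.9 and 15.2 CPM in Doxo+Cyta (1.14, adjusted p = 0.0833). CD38 had at most 1 count per library here and was not tested. A p above the threshold does not show that these genes are alike in the groups. Most of them are named for the contrast with Doxo+Cyta+DAC rather than with NT. Between Doxo+Cyta and Doxo+Cyta+DAC 25 of the 27 differed, where 60.3% of all tested genes did, with a median log2 difference of 0.63. That choice favours such differences, so nothing is read from this count. TXNIP was at 165 to 280 CPM in Doxo+Cyta+DAC (2.60 higher in Doxo+Cyta on the log2 scale, adjusted p = 1.44e-07), and POLA1 at 48.8 to 53 CPM (-1.79, adjusted p = 7.68e-07).

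Against Doxo cells, 18 of the 207 genes differed (8.7%, where 3.4% of all tested genes did, 1.07% higher and 2.32% lower in Doxo+Cyta), 8 lying farther from NT than in Doxo and 10 nearer. The AP-1 genes were nearer: FOSB was at 17.5 to 19.6 CPM in Doxo+Cyta and 150 to 210 CPM in Doxo (adjusted p = 9.54e-05), and JUN at 125 to 141 and 208 to 272 CPM (adjusted p = 0.00241). CXCL8 was at 4.58 to 7.94 CPM in Doxo+Cyta and 24.3 to 30.7 CPM in Doxo (adjusted p = 0.00449), and HBE1 at 461 to 664 and 1190 to 1240 CPM (adjusted p = 0.045). TMEM120A, a membrane protein, lay farther out, at 44.0, 49.8 and 54.7 CPM in Doxo+Cyta, 11.7 to 24.9 CPM in Doxo and 18.8 and 14.4 CPM in NT (adjusted p = 0.00656 against Doxo). The proliferation marker MKI67 was at 280, 203 and 269 CPM in Doxo+Cyta, 343 to 393 CPM in Doxo and 372 and 413 CPM in NT (adjusted p = 0.0252 against Doxo and 0.0372 against NT). SFPQ, an RNA-binding protein of paraspeckles, was at 212, 228 and 222 CPM in Doxo+Cyta, 329 to 455 CPM in Doxo and 327 and 376 CPM in NT (adjusted p = 0.00457 against Doxo). These 3 genes were named after their values were seen. By list, 21 of 38 immediate early genes and 10 of 31 p53 targets differed from Doxo, with medians of -0.92 and -0.52 for Doxo+Cyta minus Doxo. The 207 genes were chosen on the same Doxo+Cyta libraries, so these shares are a description.

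Against Doxo+Cyta+DAC cells, 172 of the 207 genes differed (83.1%, where 60.3% of all tested genes did, 30.5% higher and 29.8% lower in Doxo+Cyta). The 207 genes were chosen on the same Doxo+Cyta libraries, which favours such differences, so nothing is read from this share. ATR, for example, had a mean of 36.7 CPM in Doxo+Cyta+DAC against 12.6 to 15.5 CPM in Doxo+Cyta, and MCM10 a mean of 109 CPM against 23.9 to 27.3 CPM. HDAC9, at a mean of 0.0394 CPM in Doxo+Cyta+DAC, was low in that group too.

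Changes were also laid along the chromosomes. Chromosome medians of the log2 fold change lay between -0.09 and 0.13. Of 247 windows of 10 Mb on GRCh38 with at least 20 tested genes, the lowest were chromosome 6 from 10 to 20 Mb, at -0.46 over 30 genes, and chromosome 6 from 0 to 10 Mb, at -0.43 over 37 genes. In these windows the medians of replicates 19, 20 and 22 were -0.41, -0.70 and -0.37, and -0.47, -0.51 and -0.23. No gene of these windows was called. The Doxo libraries were lower there too, at -0.43 to -0.67 and at -0.70 to -0.77, against the same NT libraries. The highest window was chromosome X from 150 to 160 Mb, at 0.38 over 76 genes, with 0.05, 0.69 and 0.29 in replicates 19, 20 and 22 and 0.13 without replicate 20. Chromosome 8 from 20 to 30 Mb, at 0.32 over 61 genes with 3 called higher, was even across the libraries at 0.28, 0.34 and 0.23.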

How the data were processed

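RNA of 12 HEL cultures was sequenced as paired-end reads. The authors checked reads with FastQC, removed reads of low quality, used Bowtie2 2.2.8 for alignment to GRCh38 and counted fragments per gene with featureCounts 1.6.0 without regard to strand, so overlapping and antisense genes cannot be told apart. The deposited values are raw counts, not normalized. Of 26485 genes, 4 lacked a count and were left out, the names of 4 had been turned into dates, and 1119 include copies on alternate contigs.

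Groups were taken from the sample labels. Counts were filtered with filterByExpr, scaled by TMM and fitted with the quasi-likelihood test of edgeR 4.0.16 (R 4.3.3) over all 12 libraries and 4 groups, two-sided, with Benjamini-Hochberg adjustment over 14164 genes. A gene counted as called when its adjusted p was under 0.05. The standard error is the log2 fold change divided by the root of F. Log2 CPM use a prior count of 2, and a count of 0 was bounded by 3 counts over the group. Counting intervals are exact at 95% and cover counting error only. Exon length and GC content come from the exon coordinates deposited with the counts and the GRCh38 sequence. The fit was tested on simulated data. DESeq2 1.42.0, RLE and upper-quartile scaling, other filters, a fit of 2 groups, each library left out and, added after the data were seen, offsets for length and GC content were tried.

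The comparison and the gene lists were chosen with earlier results of these data known. Named genes are in each direction the 12 called genes with the largest change, no overlap between groups and a mean of 1 CPM or more where higher, up to 3 called genes per list by adjusted p, the 6 genes per direction in which replicate 20 departs most at 5 CPM or more, and the genes that the study names. The mast cell list was added after the values were seen. No library of a group was a duplicate of another. One gene that this rule selects is not reported here.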

Additional observations from a re-analysis of the deposited data

Results flagged for a closer look

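Among the 24 genes with the largest changes against NT, the difference between the Doxo+Cyta and Doxo relapses passed the test in CCR4 and CXCL8. CCR4, a chemokine receptor, was lower in Doxo+Cyta than in Doxo by a log2 fold change of -2.34 (adjusted p = 0.00138): it was at 1.3, 1.0 and 1.41 CPM in Doxo+Cyta, 5.81 to 6.77 CPM in Doxo and 2.73 and 4.23 CPM in NT, so Doxo+Cyta lay below and Doxo above NT. CXCL8 differed by -2.01 (adjusted p = 0.00449), with Doxo+Cyta between NT and Doxo. The tests are those of the difference between the relapses in the edgeR fit. CCR4 lay lower and CXCL8 higher in 3 of 3 Doxo+Cyta libraries than in both NT libraries, which the rule that selected these genes required.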

How the results depend on the processing

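The number of genes called against NT was 207 as reported, 187 with RLE scaling, 207 with upper-quartile scaling, 189 with at least 10 counts in every sample, 226 without Doxo+Cyta replicate 20 and 279 with length and GC offsets. It was 358 with no filter, 13 with only Doxo+Cyta and NT in the fit and 835 with DESeq2, and the stricter thresholds gave 0 (fold over 3) and 48 (natural log fold beyond 1). Leaving out each library gave 0 to 711 calls: 0 without NT 1 or NT 2, 711, 84 and 86 without Doxo 4, 5 or 6, 26 and 49 without Doxo+Cyta 19 or 22, and 115, 316, 127 and 88 without Doxo+Cyta+DAC 30, 31, 32 or 33. With 1 NT library left, it is assumed to vary like the other groups. Against Doxo, 481 genes were called, 130 to 877 with a library left out and 933 with DESeq2: 284 without NT 1 or NT 2, 877, 168 and 186 without Doxo 4, 5 or 6 and 130 without Doxo+Cyta 19. Upper-quartile scaling gave 205 higher, the rest lower,, against 152 and 329 as reported. Against Doxo+Cyta+DAC, 8546 were called and no setting moved this by over 1.5 times. The departure of replicate 20 was 0.595 with a prior count of 0.5 and 0.47 over genes of at least 5 CPM, against 0.544, and 0.448 with the length and GC offsets. No named gene that was called reversed its direction, which the lack of overlap between groups fixed in advance for the fits with a library left out. Repeated tests of the named genes kept their side of the threshold 1146 times, lost a call 434 times and gained one 11 times. The first of these numbers includes genes that were not called as reported and stayed uncalled. It is therefore no measure of how often calls held. No paired analysis was possible because the groups compared share no replicate numbers. The 2 NT libraries set the limit of this comparison.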

Other observations

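CLU, RELB, CPA3 and TMEM120A were called in 17 of 19 alternative fits, the most of any called gene. The genes below were named after their values were seen. CLU, which encodes the chaperone clusterin, was at 247 and 242 CPM in NT and at 507, 655 and 559 CPM in Doxo+Cyta (1.23, SE 0.15, adjusted p = 0.0113). GBP2, an interferon-induced GTPase, was at 2.57 and 3.16 CPM in NT and at 12.5, 10.7 and 11.2 CPM in Doxo+Cyta (2.01, SE 0.34, adjusted p = 0.0236). The calcium-binding protein S100A10 was at 127 and 112 CPM in NT and at 201, 229 and 215 CPM in Doxo+Cyta (0.85, SE 0.12, adjusted p = 0.017). CDKN1A, the p53-induced cell cycle inhibitor, was at 11.1 and 11.4 CPM in NT, at 11.9 and 13.1 CPM in replicates 19 and 22 and at 46.0 CPM in replicate 20.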
